A study of Arabidopsis thaliana with 12 samples.

Results

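The 9 genes described here are named for, or known for, induction when Arabidopsis thaliana is kept in darkness and runs short of sugar. They are SEN1 (AT4G35770), DIN2 (AT3G60140), DIN9 (AT1G67070), DIN10 (AT5G20250), DIN11 (AT3G49620), BGAL4 (AT5G56870), AT2G32150, TPS8 (AT1G70290) and AKINBETA1 (AT5G21170), 9 of 27444 nuclear protein-coding genes. The genes were selected on their locus numbers with the MAC3A peak lists already known, so the presence of peaks in dark or blue libraries partly chose them. Their peak counts are therefore given as a description, with no test. For each gene, every peak summit inside the gene or within 1 kb of either end was listed in each library, which gave 70 summits, 65 of them inside the gene.

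MAC3A, a U-box protein that belongs to a Prp19-like splicing complex of plants, was mapped by ChIP-seq, in which DNA bound to a tagged protein is precipitated and sequenced. Of 12 samples, 6 were MAC3A libraries, 3 titled dark and 3 titled blue, and 6 were titled input control, 3 per condition, and the signal of these controls was not analysed here. Per the labels, all came from whole seedlings aged 6 days of genotype Columbia-4 on MS medium, the MAC3A samples from lines expressing MAC3A-GFP and the controls from lines with GFP only. What drives the MAC3A-GFP transgene, and whether untagged MAC3A was present, is not given in the sources used here. The growth note names LED blue light for every sample, so the dark condition rests on the titles, and the antibody is labelled anti-FLAG although the tag is GFP. Nothing says that the replicates came from separate cultures.

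When light is withheld, photosynthesis stops and plant cells switch to breaking down stored sugars, cell wall polymers, proteins and chlorophyll. The kinase SnRK1, the plant relative of yeast SNF1 and animal AMPK, drives much of this switch when sugar is low, and trehalose 6-phosphate, a signal of sucrose supply, restrains it. The DIN genes, short for dark inducible, and SEN1 are widely used as markers of this state, and feeding sugar represses many of them.

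Replicates 1, 2 and 3 gave 1285, 1225 and 1169 peaks in darkness, and 1505, 1820 and 1578 under blue light. A fold is the enrichment at a summit over the local background, as the authors' caller gave it, and whether that background came from a control is not stated. Median folds were 3.33, 3.35 and 3.37 in the dark libraries, and the blue medians were 2.85, 2.78 and 2.80. The lowest folds listed were 1.47 to 1.67 for darkness and 1.53 to 1.70 for blue light. Read totals were not used here, so a gene without a peak had none passing the caller's threshold in that library, which is not a measurement of no MAC3A. Fewer peaks and a lower coverage in the dark libraries cannot be told apart from these lists.

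Peaks at these genes were mostly found in the blue libraries. A summit was present in at least 2 of 3 blue libraries at 7 of the 9 genes, where 7.37% of all protein-coding genes met that criterion. In the dark, 1 of the 9 met it, DIN9, against 5.62% of all protein-coding genes. DIN10, BGAL4, AT2G32150, TPS8 and AKINBETA1 had a summit in all 3 blue and no dark libraries, a pattern seen at 1.14% of protein-coding genes. None of the 9 had the reverse pattern, which 0.401% of protein-coding genes had. DIN9 had summits in all 6 libraries, as did 2.70% of protein-coding genes, and SEN1 in 2 blue libraries. DIN2 and DIN11 had none in any library, while 13.7% of protein-coding genes had a summit in at least 1 library. The 9 genes have a median length of 3299 bp against 2078 bp for all protein-coding genes, and a longer gene offers a longer window for a summit. Whether length bears on these counts was not tested. At a fold of at least 3, BGAL4 and AT2G32150 were the 2 genes left with summits in all 3 blue and no dark libraries.

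**Figure D1:**
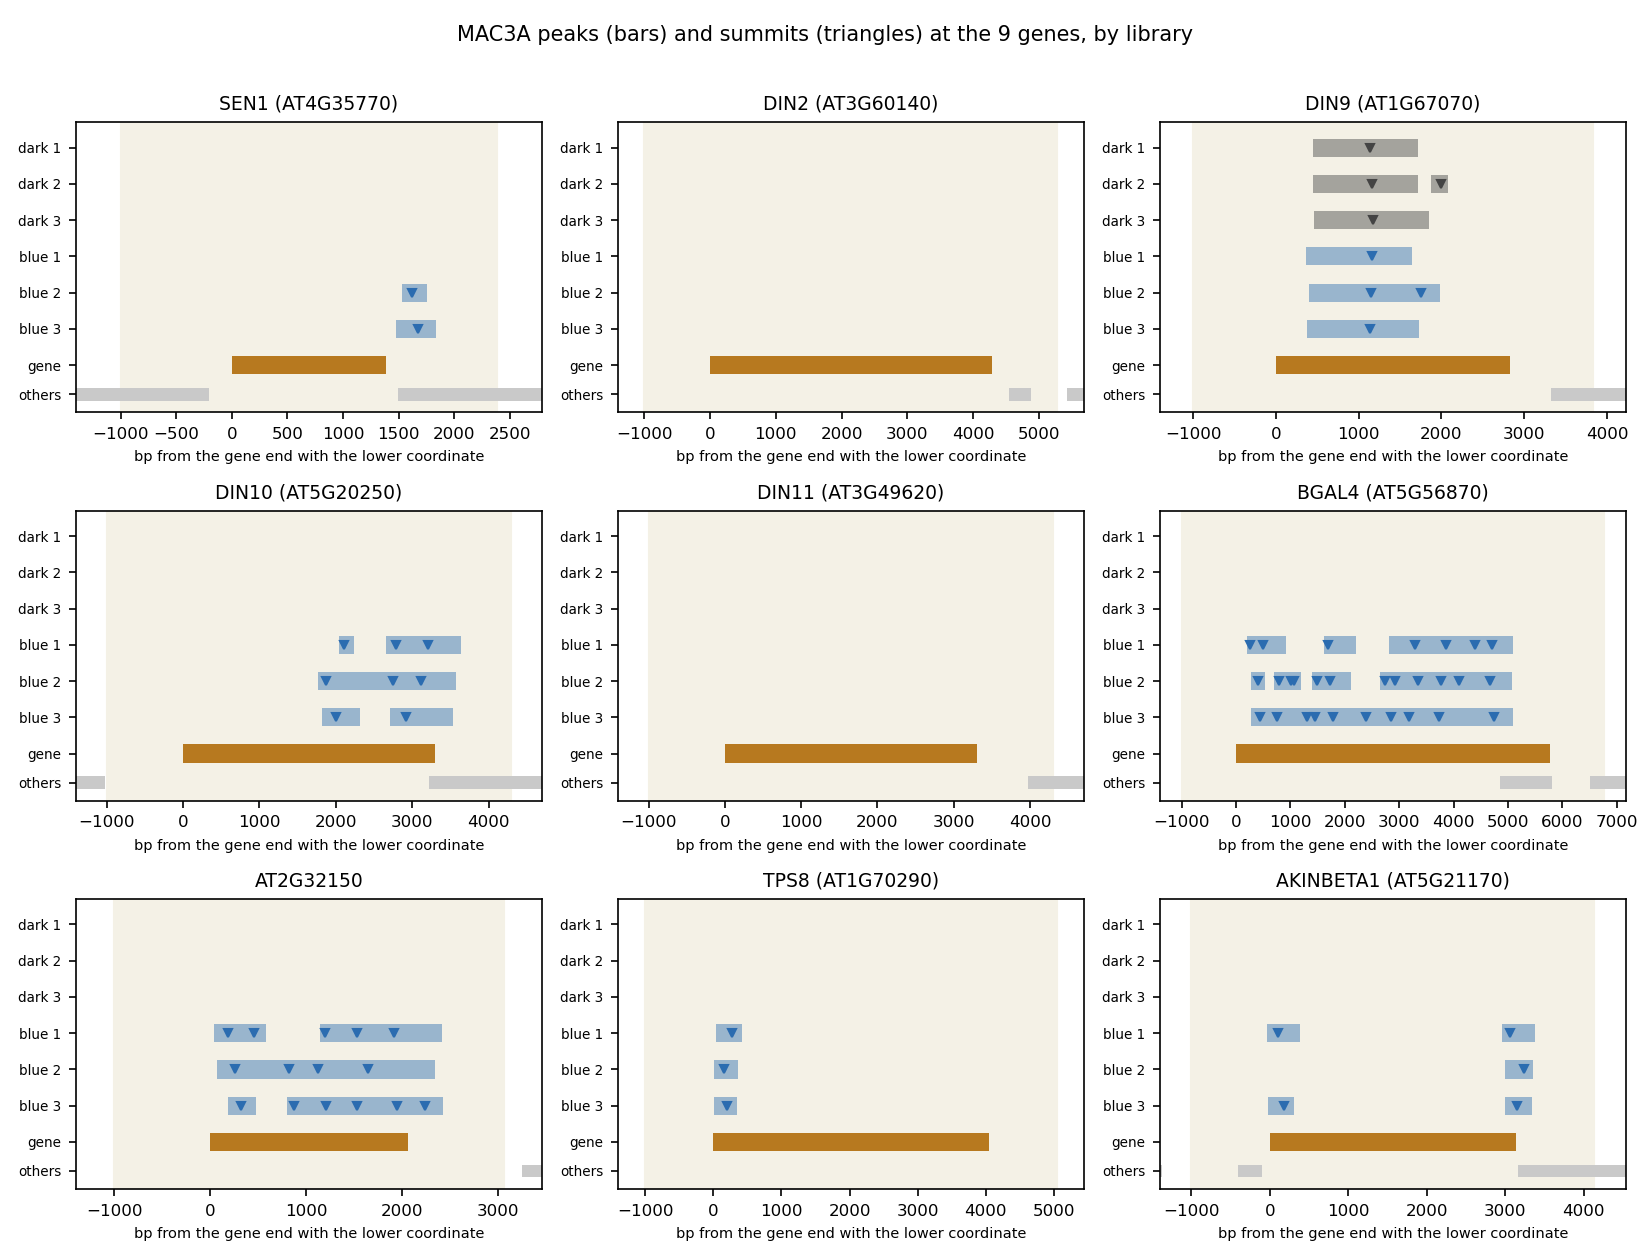
Peaks (bars) and summits (triangles) at the 9 genes in the 3 dark (grey) and 3 blue (blue) libraries, against distance in bp from the gene end with the lower coordinate. The brown bar is the gene, light grey bars are other genes, and the shaded area is the gene with 1 kb at either end. DIN9 has peaks in all 6 libraries, BGAL4 and AT2G32150 are covered along most of their length in blue light, and DIN2 and DIN11 have none.

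DIN9 encodes a phosphomannose isomerase, which interconverts mannose 6-phosphate and fructose 6-phosphate, and carried the strongest peaks of the set. Its main summit had a fold of 12.2, 14.4 and 15.7 in the dark libraries and 9.88, 10.4 and 10.4 in the blue libraries. All 6 values lay far above the median fold of their lists, and the dark values lay above the blue ones, a difference that was not tested because folds depend on the depth of each list. By −log10 q the summit ranked 26, 23 and 18 among 1464, 1373 and 1342 dark summits and 21, 24 and 23 among 1725, 2139 and 1828 blue summits. Its rank was thus between 18 and 26 in every library.

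The DIN9 summit was also the most closely placed of the set. It lay at 25042974, 25042997 and 25043001 on chromosome 1 for darkness and at 25042991, 25042986 and 25042974 for blue light (TAIR10, counted from 1), a spread of 27 bp over the 6 libraries. The position is inside the gene, 1141 to 1168 bp from its lower-coordinate end. The peaks around it were 1266, 1267 and 1397 bp wide in dark libraries and 1278, 1581 and 1353 bp wide in blue ones, among the 25 widest of each list. All DIN9 peaks together covered 48.8 ± 3.74% of the gene in dark libraries, against 49.7 ± 5.58% of it in blue ones (SD, n = 3 per condition), so the covered shares overlapped. Weaker summits stood beside it in dark replicate 2, with a fold of 3.48, and in blue replicate 2, with a fold of 2.36. Among the 533 regions that all 6 libraries shared, the ratio of the blue to the dark median fold was 0.721 at DIN9, and its median over these regions was 0.826, with quartiles of 0.721 and 0.947. The region over DIN9 was at rank 17 of the 533 by dark fold and at rank 23 by blue fold.

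**Figure D2:**
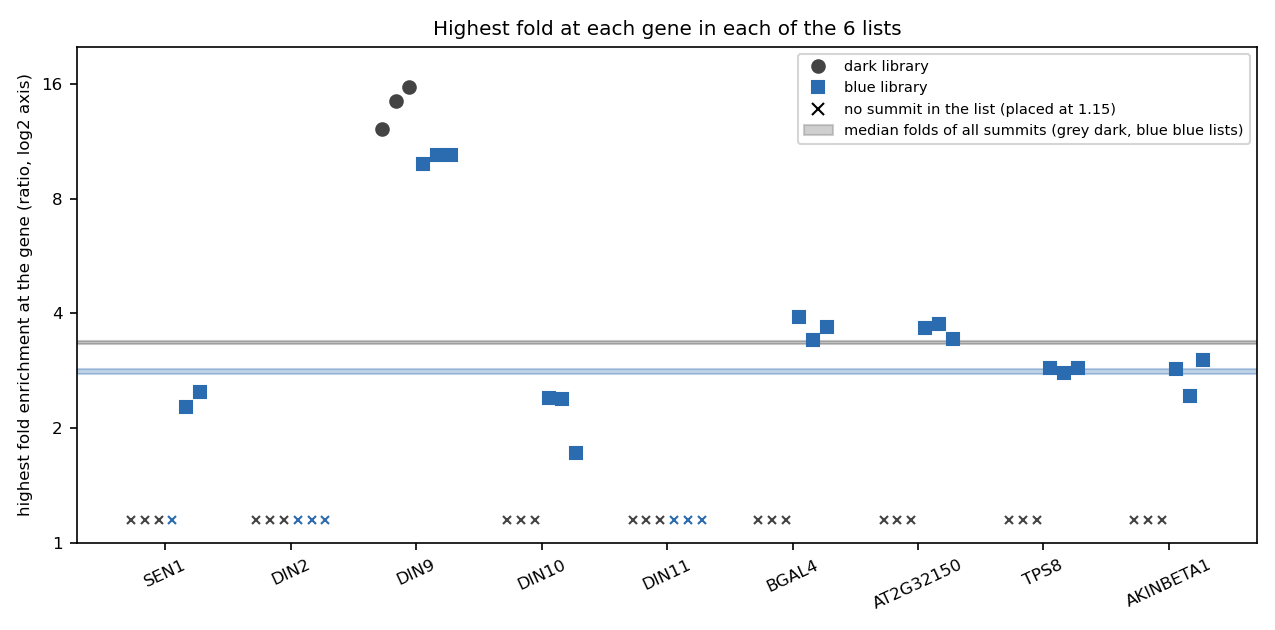
The highest fold at each gene (ratio, log2 axis) in each dark (grey circles) and blue (blue squares) library, with crosses where a list had no summit. Bands mark the median folds of all summits in the dark (3.33 to 3.37) and blue (2.78 to 2.85) lists. DIN9 stands between 9.88 and 15.7, and the other genes with peaks between 1.72 and 3.90.

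BGAL4, a beta-galactosidase that releases galactose from sugar chains, had the most bases under peaks of the set. Peaks lay over 3594, 3908 and 4826 bp of the gene in blue replicates 1, 2 and 3, and the nearest dark peak was 130236 bp away. The covered length sums all peaks over the gene. In each blue library it was the largest of any protein-coding gene, the next being 2360, 2175 and 2378 bp. As a mean share of the gene in blue light, BGAL4 at 71.3% was below AT2G32150 at 81.0%. The medians over the genes with any covered base were 292, 285 and 292 bp. In blue replicate 3 a peak of 4826 bp, from 23004176 to 23009001 on chromosome 5, took in 83.7% of the gene and was the widest of that list. The other blue lists broke the same stretch into 3 and 4 peaks, of which the widest measured 2281 and 2416 bp and ranked 2 and 1 by width. The stretch ran on into the overlapping gene AT5G56880, but no summit lay within that gene.

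Summits were spread along BGAL4. The 3 libraries held 7, 12 and 10 summits there, with folds between 2.09 and 3.90. Grouped where neighbours lay within 150 bp, they formed 12 groups, of which 5 had a summit in all 3 libraries. The strongest recurring group, 23008581 to 23008644, had folds of 3.90, 3.40 and 3.42 and lay 1028 to 1091 bp inside the higher-coordinate end. A group near the opposite end, at 23004165 to 23004398, had folds of 2.52 to 3.36. The highest fold in each library was 3.90, 3.40 and 3.69, or 3.66 ± 0.249 (SD, n = 3). Of all summits in each dark list, in genes or not, 62.3% to 63.7% had a fold at or below 3.69, the median of these 3 values. The same held for 82.6% to 84.9% of the blue summits. Folds depend on the depth of each list, so these shares do not show whether a summit of this size would pass in a dark library.

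DIN10 is annotated as a raffinose synthase (RS6) of a family that also includes enzymes splitting galactose from raffinose sugars. Its blue peaks covered 853, 1530 and 1086 bp of the gene, or 35.1 ± 10.4% (SD, n = 3), all within the part nearer the higher-coordinate end. Summits recurred in all 3 blue libraries at 6835431 to 6835669 and at 6836319 to 6836483 on chromosome 5. A further summit, at 6836676 and 6836772 in blue replicates 2 and 1, carried the highest fold of those lists at the gene. The highest folds in the 3 libraries were 2.40, 2.38 and 1.72, below the blue medians of all summits. In blue replicate 3 the best −log10 q at the gene was 3.60, against 7.49 and 8.52 in the other two. Folds at or below their median, 2.38, made up 5.90% to 6.97% of dark summits and 13.3% to 18.0% of blue summits. The peaks at the higher-coordinate end also entered the gene AT5G20260, which overlaps DIN10 by 82 bp. The nearest dark peak was 84600 bp away.

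DIN2, a beta-glucosidase gene (BGLU30), had no summit in its body or within 3 kb, the nearest dark peak being 3871 bp and the nearest blue peak 3851 bp from it. Those peaks lay over its neighbour and relative BGLU16 (AT3G60130), which lies 2657 bp from DIN2, with dark folds of 19.6, 16.8 and 17.1 and blue folds of 12.6, 14.1 and 9.65. Of these neighbouring genes of 1 family, BGLU16 thus had strong peaks in all 6 libraries and DIN2 had none.

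**Figure D3:**
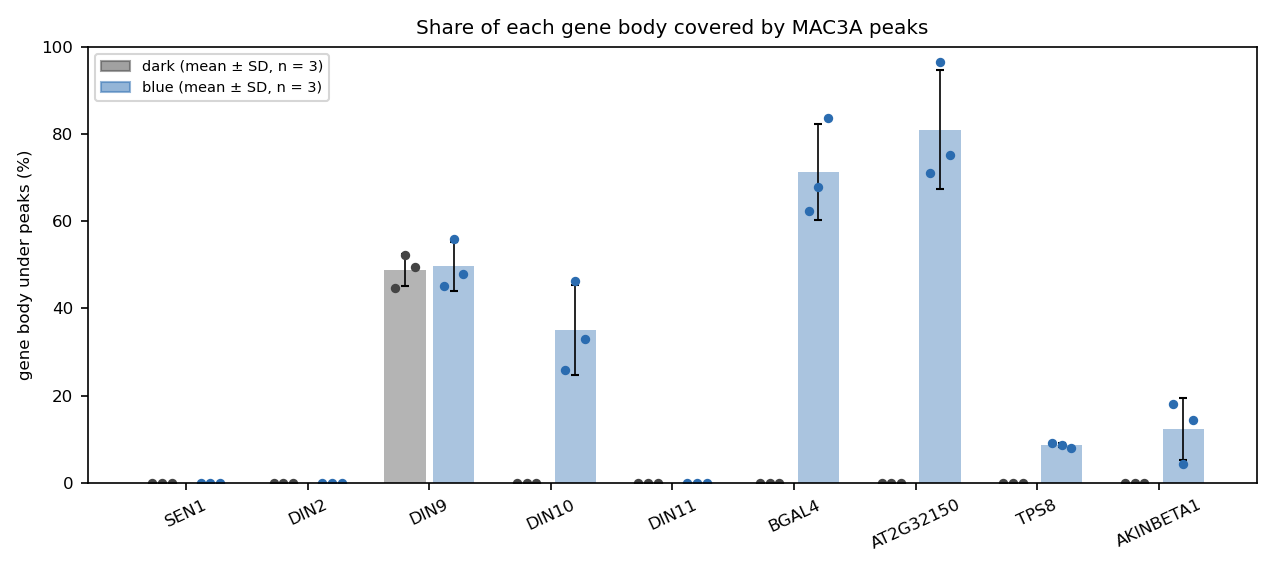
Share of each gene body under MAC3A peaks (percent) in dark (grey) and blue (blue) libraries. Bars are means, error bars SD (n = 3) and points single libraries. DIN9 is covered to 48.8% and 49.7%, BGAL4 and AT2G32150 to 71.3% and 81.0% in blue light, and SEN1, DIN2 and DIN11 to 0.

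AT2G32150, a hydrolase of the haloacid dehalogenase superfamily, resembled BGAL4 in the extent of its coverage. Peaks covered 1465, 1991 and 1552 bp of the gene in the blue libraries, 81.0 ± 13.7% of its length (SD, n = 3). By length covered it ranked 9, 3 and 11 among the 1383, 1639 and 1430 protein-coding genes with any covered base. In blue replicate 2 a single peak of 2278 bp, from 13658958 to 13661235 on chromosome 2, ran nearly end to end and was at rank 2 by width in its list. Blue replicate 1 and blue replicate 3 each had 2 peaks, of 548 and 1279 bp and of 292 and 1626 bp.

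The summits at AT2G32150 were highest toward both gene ends. Near the lower-coordinate end the libraries had folds of 3.10, 3.75 and 3.43, at 13659344, 13659146 and 13659205. Inside the higher-coordinate end, a summit at 13660804 in blue replicate 1 and at 13660836 in blue replicate 3 had folds of 3.66 and 2.84, and blue replicate 2 had one of 3.32 at 13660532. Between them, summits at 13660008 to 13660097 had folds of 2.17 to 2.46 in the 3 libraries. The highest fold per library was 3.66, 3.75 and 3.43, or 3.62 ± 0.164 (SD, n = 3). Blue replicate 3 also had a summit 182 bp past the higher-coordinate end, with a fold of 2.63. The nearest dark peak was 41587 bp away.

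TPS8 belongs to the trehalose-6-phosphate synthase family, in the class whose members have little or no synthase activity of their own. It had 1 narrow peak per blue library, at the lower-coordinate end of the gene. The peaks were 370, 349 and 326 bp wide, close to the median widths of 357, 346 and 350 bp in these lists, with summits at 26471064, 26470954 and 26471002 on chromosome 1. The summits lay 159 to 269 bp inside the gene, and the peaks covered 8.62 ± 0.545% of it (SD, n = 3). Their folds of 2.87, 2.79 and 2.88 were the most alike of any gene with blue peaks alone, at 2.85 ± 0.0520 (SD, n = 3). They stood near the middle of their own lists, where 51.0% to 55.9% of summits had a fold at or below the median of the 3, and 25.2% to 25.9% of dark summits did. The nearest dark peak lay 9954 bp away.

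AKINBETA1, a regulatory beta subunit of the kinase SnRK1, had narrow peaks at its 2 ends and none between. At the lower-coordinate end, summits lay at 7205586 in blue replicate 1 and at 7205664 in blue replicate 3 on chromosome 5, with folds of 2.85 and 2.29, and blue replicate 2 had none. At the other end, all 3 libraries had one, at 7208536, 7208711 and 7208628, with folds of 2.53, 2.42 and 3.01. The summit of replicate 1 was 77 bp inside the gene, and those of replicates 2 and 3 were 98 and 15 bp past its end. The next gene, AT5G21222, starts 29 bp beyond, and the summit of blue replicate 2 fell inside it, so these peaks cannot be assigned to either gene alone. With gene bodies only, AKINBETA1 was left with 2 blue libraries, and at a −log10 q of at least 5 with none.

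SEN1, a senescence marker also known as DIN1, had no peak over its body. In blue replicates 2 and 3 a summit lay 236 and 288 bp past its higher-coordinate end, at 16946502 and 16946554 on chromosome 4, with folds of 2.27 and 2.48. Both summits fell inside the next gene, STY17 (AT4G35780), a protein kinase gene that starts 102 bp beyond SEN1. The peaks were 220 and 351 bp wide and had a −log10 q of 5.36 and 5.04. The nearest dark peak was 5182 bp away. With gene bodies only, or with each summit given to its nearest gene, SEN1 had no library left. These were the summits farthest outside any of the 9 genes, and the nearest ones beyond the limit of 1 kb were 2915 bp from SEN1, with a fold of 2.16, and 2970 bp from TPS8, with a fold of 2.52, both in blue replicate 3.

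DIN11, a gene of the 2-oxoglutarate-dependent dioxygenase superfamily, had no summit within 3 kb. Its nearest peaks were 27569 bp away in the dark and 27526 bp away in blue light.

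The 5 genes with peaks in all blue and no dark libraries thus fell into 2 forms. BGAL4, AT2G32150 and DIN10 had several summits per library under wide peaks, over 35.1% to 81.0% of the gene on average. TPS8 and AKINBETA1 had peaks near the median width at gene ends, over 8.62% and 12.3%. Of their 60 summits, 57 were inside the genes, and 15 had a fold of at least 3. Their best summits ranked between the top 13.4% and the top 75.7% of their lists by −log10 q, whereas DIN9 was in the top 1.78% or better of every list. The bases under peaks were shared by all 3 blue libraries to 66.4% at BGAL4, 62.6% at AT2G32150, 55.3% at DIN10, 73.4% at TPS8 and 40.3% at AKINBETA1, as a share of those under a peak in any of them. At DIN9 this share was 77.2% in blue light and 78.2% in the dark.

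Other genes that darkness or sugar starvation induces also had peaks. A list of 18 such genes, mostly of amino acid metabolism, was drawn up with some of these peaks known, so its direction is not independent evidence. Of the 18, 12 had a summit in at least 2 blue libraries and 3 in at least 2 dark libraries, against 7.37% and 5.62% of protein-coding genes. In 7 of them all 3 blue and no dark libraries had one, and in 1 the reverse held, against 1.14% and 0.401% of protein-coding genes. The 7 were BCE2 (AT3G06850) and DIN4 (AT3G13450), both of the branched-chain keto acid dehydrogenase complex, AT1G21400, annotated to the same step, the dormancy-associated genes DYL1 (AT1G28330) and AT2G33830, the RING finger gene AT5G22920 and the beta-xylosidase gene BXL1 (AT5G49360). With lists of equal length, or with gene bodies only, 4 genes kept this pattern in number, and 2 did at a fold of at least 3.

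Among these 7, AT5G22920 had blue folds of 3.48, 3.37 and 3.46 and 26.7% to 51.0% of its body covered. AT2G33830 had folds of 2.95, 3.99 and 3.23 and 30.8% to 75.2% covered. The folds at AT1G21400 were 3.86, 3.39 and 2.32, and those at BXL1 2.17, 2.04 and 1.96, the lowest of the 7. DIN4 had folds of 3.97, 3.52 and 3.56, but summits counted for it also fell in the neighbouring genes AT3G13445 and AT3G13460, and at BCE2 in AT3G06840. Blue peaks covered only 0% to 6.65% of the DIN4 body and 3.37% to 8.87% of the BCE2 body. Both genes had a summit inside the body in 2 blue libraries. DYL1 had folds of 3.35, 2.36 and 2.55, with a summit inside its body in 1 blue library alone.

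Dark summits were present at the amino acid genes ASN1, GDH2, ERD5 and MCCB. ASN1 (AT3G47340), the asparagine synthetase also known as DIN6, had dark folds of 3.53, 2.27 and 2.28 and blue folds of 2.78, 2.99 and 2.85, so the conditions overlapped. GDH2 (AT5G07440), a glutamate dehydrogenase, had dark folds of 2.81, 4.18 and 3.56 and blue folds of 3.42, 3.75 and 3.29, with 87.6% to 95.8% of its body under blue peaks. ERD5 (AT3G30775), the proline dehydrogenase that opens proline breakdown, had dark folds of 7.02, 3.59 and 6.73 and no blue summit. MCCB (AT4G34030), a subunit of the carboxylase in leucine breakdown, had a dark fold of 3.16 in replicate 3 and blue folds of 2.88 and 3.06 in replicates 1 and 3. All of these summits lay outside the body of MCCB, where the gene AT4G34035 was found at summits. GDH1, PHI-1, IVD and BCDH BETA1 had no summit in any library.

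**Figure D4:**
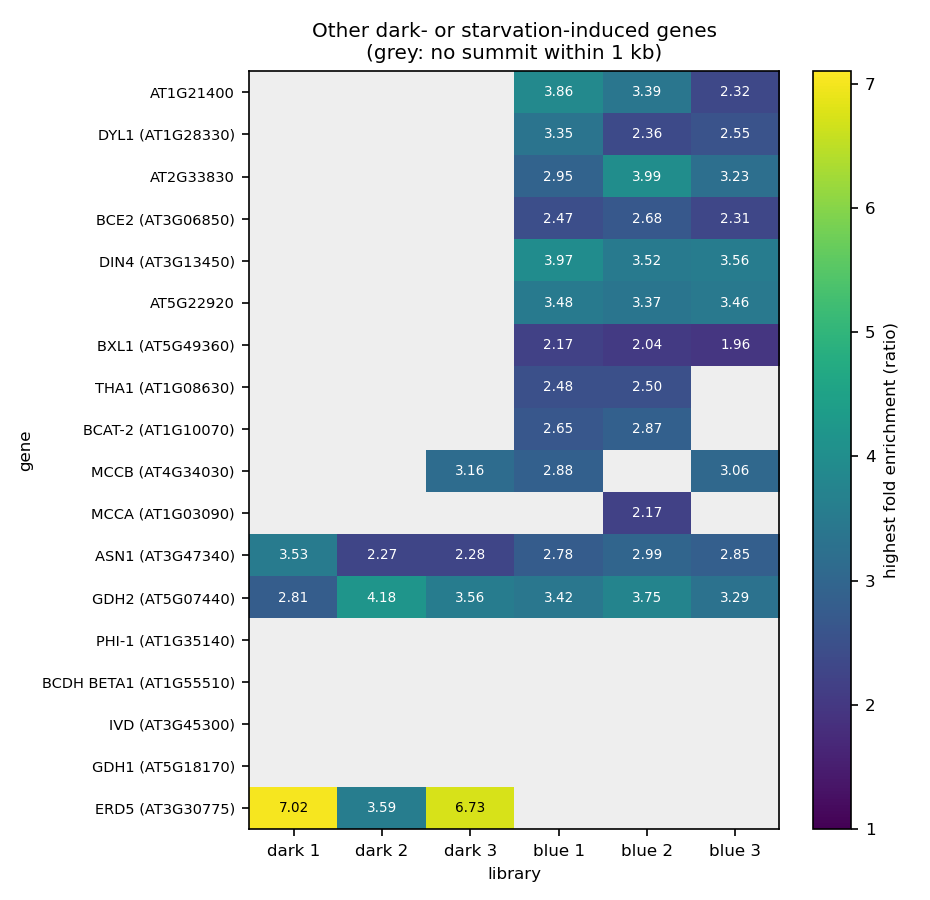
Highest fold (ratio, colour and printed value) at 18 other dark- or starvation-induced genes in each library, where grey means that the list had no summit within 1 kb. The upper 7 genes have values in the 3 blue columns alone, ASN1 and GDH2 in all 6 columns and ERD5 in the 3 dark columns alone.

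The other 4 lists, of relatives of the 9 genes and of factors that act with them, are read against the 13.7% of protein-coding genes with a summit in at least 1 library. Of the 6 other SnRK1 subunit genes, 1 had a summit in any library, a share near that of all genes. It was the catalytic subunit gene KIN10 (AT3G01090), with a summit in blue replicate 1 outside its body and inside the gene AT3G01100. None of the 6 had a summit in at least 2 libraries of a condition. These criteria were met by 7.37% (blue) and 5.62% (dark) of protein-coding genes, so a count of 0 is near the background. Of the 10 other trehalose-6-phosphate synthase genes, 2 had a summit in any library, a share near that of all genes. TPS7 (AT1G06410) had summits in 3 blue and 2 dark libraries, all outside its body, and TPS9 (AT1G23870) in 2 blue libraries. Of 9 bZIP genes of groups C and S1, whose proteins act with SnRK1 in starvation, 7 had a summit in at least 1 library. At bZIP1, bZIP44, BZO2H3 and BZO2H1 it was in 1 library alone, and bZIP44, BZO2H3, BZO2H1 and BZIP25 had none inside the body. A summit in at least 2 dark libraries was found at 2 of the 9, and in at least 2 blue libraries at 2. The shares of all protein-coding genes were 5.62% and 7.37%. BZIP53 (AT3G62420) had summits in all 6 libraries, with a median fold of 3.70 for darkness and 2.97 for blue light. GBF6 (AT4G34590), which encodes bZIP11, had them in 2 dark and 1 blue library.

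Among 20 relatives in sugar hydrolysis and sugar phosphate conversion, 5 had a summit in at least 1 library, against the same 13.7% of protein-coding genes. Of the 10 other beta-galactosidase genes in the list, BGAL1 (AT3G13750) alone had one, with folds of 3.29, 3.29 and 3.14 in blue light and of 2.74 and 3.88 in dark replicates 1 and 2. The stachyose synthase gene STS (AT4G01970), of the same family as DIN10, had summits in all 6 libraries, with a median fold of 10.4 for darkness and 5.88 for blue light. Phosphomannose isomerase 1 (MEE31, AT3G02570), the relative of DIN9, had summits in 3 blue and 2 dark libraries with median folds of 3.01 and 3.20, below the folds at DIN9. A summit lay inside the MEE31 body in 1 blue and 2 dark libraries. None of these 4 lists held a gene with summits in all 3 libraries of 1 condition and none of the other, patterns that 1.14% (blue) and 0.401% (dark) of protein-coding genes had, so that a count of 0 is near the background. Over all 63 genes of the 5 lists, 21 had a summit in at least 2 blue and 11 in at least 2 dark libraries, against 7.37% and 5.62% of protein-coding genes, and 12 of the 21 came from the list of 18 drawn up with peaks known. At a −log10 q of at least 5 these counts were 13 and 5, and without dark replicate 2 the dark count was 7.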

How the data were processed

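The submitters' processing notes name the build TAIR10 and the tools ChIPseeker, MACS2 2.1.1, SAMtools and Bowtie2. Parameters, and the control used for each list, are not stated there. Each MAC3A library has 1 deposited peak list. The fold per summit is the authors' deposited ratio over the caller's local background, and the −log10 p and −log10 q are the authors' deposited values. Of these, q alone is adjusted, within each library. The deposited score, a whole number derived from q, was not used. Nothing was realigned, and read depth was not used here.

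The deposited lists were read with Python 3.11.15, numpy 2.4.6, pandas 2.3.3 and matplotlib 3.10.9. A summit was assigned to each gene that it fell in or lay up to 1 kb away from. Genes came from a RefSeq table of assembly TAIR10.1 without strand, and all 72 locus numbers matched. Distances to gene ends use that table, and printed coordinates are those of the lists. Summits lay in gene bodies in 79.1% of cases with no shift and in at most 69.6% when shifted by 1000 to 5000 bp. Assignment to genes was tested on simulated data. The planned promoter motif search was not run, since no sequence was used here.

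The members and lists were chosen with earlier results of these data known. All 9 members are named; of the other lists, those with summits in all 3 libraries of 1 condition and none of the other, or in all 6, and any gene at a member's summits, while further relatives were chosen after their values were seen. No test was made. Alternatives were a −log10 q of at least 5, a fold of at least 3, lists of equal length (1169 peaks), gene bodies, 3 kb, peak overlap, nearest gene, and each library left out. The code of the list of dark replicate 3 carries the mark of dark replicate 2.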

Additional observations from a re-analysis of the deposited data

How the results depend on the processing

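No paired analysis was possible because the results come from no test, so the replicate numbers that the conditions share were not used. With folds below 3 left out, the genes with a summit in at least 2 blue libraries numbered 3 of 9 and those with all 3 blue and no dark libraries 2. With −log10 q values below 5 left out, the latter numbered 3. Of the 63 other genes, those with a summit in at least 2 dark libraries were 5 under the limit on q and 7 under that on the fold, and for blue light 13 and 12. Of the 18 dark- or starvation-induced genes, 6 and 5 had a summit in at least 2 blue libraries under these limits in turn, and 3 and 2 had the blue pattern, which 4 had with lists of equal length and 4 with gene bodies only. These alternatives for the 18 genes were chosen after seeing the data. Leaving out 1 library at a time gave 6 to 7 of the 9 genes in blue light, 1 in the dark, 5 to 6 with the blue and 0 with the reverse pattern. It gave 7 to 11 of the 63 in the dark, where the lowest came without dark replicate 2, and 17 to 21 in blue light. Among the 18 it gave 9 to 12 in blue light and 7 to 9 with the blue pattern. With 2 libraries left, both had to hold a summit. DIN9 had a summit in every library under all 13 alternatives, so leaving out a library only made the numbers of blue and dark libraries unequal. For the other members of the 9, no alternative gave more dark than blue libraries. The cause of these moves was not tested. The lists hold no read depth, which limits what the absence of a peak shows.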
